A study of Mus musculus with 6 samples.

Results

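The immediate early genes examined here are 10 genes that encode the FOS and JUN proteins of the AP-1 transcription factor (Fos, Fosb, Jun, Junb and Jund), the related factor Atf3, the zinc finger factors Egr1, Egr2 and Egr3, and the orphan nuclear receptor Nr4a1. They were chosen by name, and all 10 were found among the 39179 Ensembl gene identifiers of the expression table by matching the identifiers to gene symbols. RNA-Seq was performed on GC B cells, sorted as Fas+GL7+ cells, and on resting (naive) B cells, sorted as Fas-GL7- cells, from ileal Peyer's patches of 12-wk-old female WT C57BL/6 littermates. Each population was analyzed in 3 replicates, each a pool of 5 mice, and the labels name no engineered allele and no treatment. Naive cells were set apart from GC cells by Fas and GL7 alone, and it is not stated in the labels whether a GC and a naive pool that share a number share their mice. The authors deposited FPKM (fragments scaled to transcript length and library size), which were rescaled so that every pool sums to 1000000 and are given as TPM, a relative transcript abundance that is comparable between genes because it is divided by transcript length.

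Immediate early genes are transcribed within minutes of a stimulus from factors already present in the cell, without new protein synthesis. In B cells, antigen receptor signaling through the MAP kinases ERK, JNK and p38 activates serum response factor (SRF) with its ternary complex partners, and CREB, which bind the promoters of these genes. Their products are themselves transcription factors. FOS proteins bind DNA as heterodimers with JUN proteins, JUN proteins can also pair with each other, and EGR proteins bind GC-rich sites and are held in check by the NAB corepressors. Nr4a1, which encodes NUR77, and the EGR genes are widely used as readouts of antigen receptor signaling in lymphocytes. The same genes are also known to respond to tissue dissociation and cell sorting, and both populations were stained and sorted before lysis. The part of this handling in the levels below was not tested.

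The promoters of Fos, Fosb, Jun, Egr2 and Nr4a1 are shown because they cover the FOS, JUN, EGR and NR4A families and include both called genes (Fosb, Jun and Nr4a1, lower in GC) and genes without a call (Fos and Egr2). Each line gives the 250 bases before a RefSeq start in GRCm38.p6, 5′ to 3′ on the strand of the gene, at chr12:85473640-85473889 (+) for Fos, chr7:19310046-19310295 (-) for Fosb, chr4:95052223-95052472 (-) for Jun, chr10:67537619-67537868 (+) for Egr2, which is 1 of 5 starts listed for that gene, and chr15:101266596-101266845 (+) for Nr4a1. Capitals mark matches to a CRE core (TGACGT), a Jun-type AP-1/ATF site (TGACATCA), a CArG box, an EGR site (GCGGGGGCG or GCGTGGGCG) or a TATA box (TATAAA), on either strand.
Fos: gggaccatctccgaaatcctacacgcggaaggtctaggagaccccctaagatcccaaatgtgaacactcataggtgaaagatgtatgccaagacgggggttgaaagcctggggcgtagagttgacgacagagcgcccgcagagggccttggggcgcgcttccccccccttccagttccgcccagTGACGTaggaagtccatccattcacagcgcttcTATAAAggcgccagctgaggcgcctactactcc
Fosb: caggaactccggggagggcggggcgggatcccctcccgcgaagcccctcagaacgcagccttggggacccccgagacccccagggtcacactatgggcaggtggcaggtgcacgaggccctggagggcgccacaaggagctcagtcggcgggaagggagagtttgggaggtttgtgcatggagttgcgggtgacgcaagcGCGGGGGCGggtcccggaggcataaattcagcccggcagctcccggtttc
Jun: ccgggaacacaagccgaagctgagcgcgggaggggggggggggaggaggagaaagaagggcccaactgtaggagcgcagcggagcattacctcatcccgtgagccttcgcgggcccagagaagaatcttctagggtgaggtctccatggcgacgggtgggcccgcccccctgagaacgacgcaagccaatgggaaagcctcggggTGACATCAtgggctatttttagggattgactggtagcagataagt
Egr2: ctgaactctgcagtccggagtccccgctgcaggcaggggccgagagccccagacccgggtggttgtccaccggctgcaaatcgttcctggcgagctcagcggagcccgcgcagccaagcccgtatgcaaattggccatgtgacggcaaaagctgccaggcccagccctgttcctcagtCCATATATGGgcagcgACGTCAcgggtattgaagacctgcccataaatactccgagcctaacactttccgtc
Nr4a1: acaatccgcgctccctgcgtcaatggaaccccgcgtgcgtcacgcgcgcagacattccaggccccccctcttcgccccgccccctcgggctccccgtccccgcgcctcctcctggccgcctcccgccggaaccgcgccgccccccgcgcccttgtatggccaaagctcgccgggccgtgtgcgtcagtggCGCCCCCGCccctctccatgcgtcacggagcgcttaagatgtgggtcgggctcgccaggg

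The letters of these promoters differed. The Fos promoter held a CRE core at positions -66 to -61 and a TATA box at -33 to -28, counted back from the start. The Jun promoter held the site TGACATCA at -45 to -38. In the Egr2 window a CArG box, the site bound by SRF, lay at -72 to -63, followed by a CRE core on the opposite strand at -56 to -51. Fosb and Nr4a1 each held an EGR site, at -50 to -42 and, on the opposite strand, at -60 to -52. The RefSeq starts used for Fosb and Nr4a1 lie inside the gene spans given below. Their EGR sites therefore lie within those spans and not upstream of the whole gene. Both EGR sites overlap a match to the GC box (GGGCGG), which was searched too but is not capitalized. Of 32851 promoters of this length, 6.47% held a CRE core, 2.93% the Jun-type site, 1.47% a CArG box, 3.06% an EGR site, 32.7% a GC box and 12.4% a TATA box. The full CRE (TGACGTCA), which contains the CRE core, was held by 1.55% of promoters and the AP-1 site TGACTCA by 4.46%. Neither was in any window of the 8 genes searched, which do not include Egr1 and Egr3. Among the searched genes not shown, Atf3 held a CRE core and GC boxes. Junb and Jund held no match to any motif searched. A match describes letters and is not evidence of binding. Bases outside the windows were not searched, so a site missing from a window may lie elsewhere near the gene.

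The sort was reflected in its markers. The GC markers Fas, Bcl6, Mki67, S1pr2 and Mybl1 were higher in GC B cells and the naive markers Ccr7, Fcer2a, Gpr183 and Cd38 were lower, with no overlap between pools. The B cell antigen receptor gene Cd79b was at 1137 to 1176 TPM in GC and 1659 to 1710 TPM in naive pools. Of the 5 B cell markers, 4 were called lower in GC and 1 higher (Ms4a1, 931 against 717 TPM). Depth, estimated from the spacing of low FPKM values, was between 9.7 and 16.1 M reads per pool. It is approximate, since 74.2% to 77.4% of the low values lay within 0.15 of a whole read. The summed level of the 6 epithelial markers was 22.2 to 37.95 TPM in GC and 47.7 to 76.1 TPM in naive pools, and 3 of 6 were called lower in GC and 1 of 6 higher. The summed level of 7 myeloid markers was 0.836 to 2.31 TPM in GC and 3.96 to 7.07 TPM in naive pools, with S100a8 and S100a9 at 0 in every pool. The 5 T cell markers summed to 1.65 to 3.51 TPM in GC and 1.72 to 2.46 TPM in naive pools. Of 6 stromal and endothelial markers, only Pecam1, which B cells also express, and Cdh5 reached 1 TPM in any pool. The 5 plasma cell markers, some of which GC and naive B cells express themselves, summed to 787 to 823 TPM in GC and 219 to 252 TPM in naive pools. Most of the GC sum was Igj alone, with a mean of 669 TPM in GC against 33.3 TPM in naive B cells. Of the 5, 2 were called higher in GC and 3 lower, so the sum does not give the direction of the list. Whether these other cells contributed to any gene with higher naive levels was not tested.

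To compare the populations, a linear model was fitted with limma to log2(TPM + 1) over the 12785 genes that reached 1 TPM in 3 or more of the 6 pools, and a gene was called at a Benjamini-Hochberg adjusted p under 0.05 over all of them. Of the 10 immediate early genes, 9 passed this filter, and Atf3 did not. No gene of the 9 was called higher in GC B cells by limma (1 at an unadjusted p under 0.05, Fos), where 35.5% of all genes tested were. Lower in GC B cells were 5 of the 9 (Egr3, Nr4a1, Jun, Fosb and Jund), against 30.1% of all genes. The remaining 4 (Fos, Egr1, Egr2 and Junb) were not called. In either direction 5 of 9 were called against 65.6% of all genes, so being called does not set these genes apart. This fit does not pair the pools. With the replicate number as a block, Fos and Egr1 were also called, higher in GC B cells. The pools did not overlap for 6 of the 9 genes, against 70.7% of all genes. The median log2 fold change was -1.12 over the 9 genes and 0.03 over all genes tested. All values are relative levels, and in bulk samples fewer cells that express a gene and less RNA per cell cannot be told apart.

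**Figure D1:**
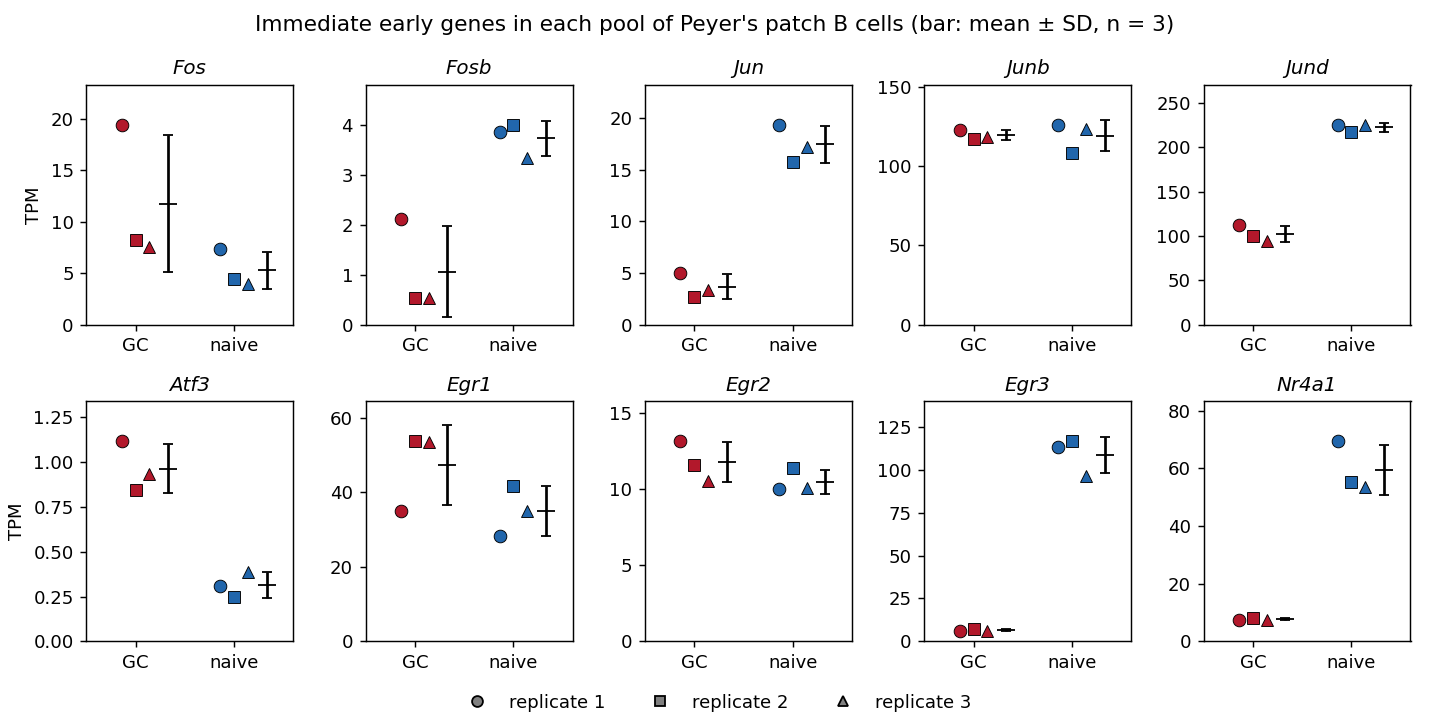
Expression of the 10 immediate early genes in TPM (vertical axes, each from 0) in the 3 GC pools (red) and the 3 naive pools (blue). Symbols mark the replicate number and the bar to the right of each group is the mean with its SD. Egr3, Nr4a1, Jun, Jund and Fosb lie lower in every GC pool than in any naive pool, and Fos in GC replicate 1 stands at 19.4 TPM against 8.24 and 7.58 TPM in the other GC pools.

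Egr3 (ENSMUSG00000033730, chromosome 14, 70077317 to 70082613 in GRCm38.p6) showed the largest difference of the 10 genes. EGR3 is a zinc finger factor induced downstream of calcineurin and NFAT in antigen-stimulated lymphocytes. It was at 113, 117 and 96.5 TPM in naive replicates 1, 2 and 3, and at 6.08, 7.23 and 6.09 TPM across GC pools. Every naive pool was thus well above every GC pool, and the mean was 16.8 times higher in naive B cells (109 ± 10.7 TPM against 6.46 ± 0.659 TPM; SD, n = 3 for each). The log2 fold change was -3.88 ± 0.10 (SE; limma, adjusted p = 5.46e-07), and 97.8% of the genes tested changed less. Of all genes whose mean reached 1 TPM, Egr3 stood above 88.9% in naive B cells and above 25.8% in GC B cells.

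Nr4a1 (ENSMUSG00000023034, chromosome 15, 101253902 to 101274795) followed the same direction. Its level was 69.3, 55.4 and 53.7 TPM across naive pools and 7.32, 7.97 and 7.41 TPM across GC pools, without overlap. The naive mean of 59.5 ± 8.58 TPM (SD, n = 3) was 7.86 times the GC mean of 7.57 ± 0.354 TPM (SD, n = 3). The log2 fold change was -2.81 ± 0.11 (SE; limma, adjusted p = 2.67e-06). The highest GC pool was thus far below the lowest naive pool.

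The other EGR genes did not share the pattern of Egr3. Egr1 (ENSMUSG00000038418, chromosome 18, 34861207 to 34864956), the classic serum response gene, was at 35.0, 53.6 and 53.4 TPM across GC pools, against 28.3, 41.7 and 35.1 TPM across naive pools. The groups overlap, because GC replicate 1 lies below 2 of the naive pools. Its log2 fold change was 0.42 (95% interval -0.09 to 0.92; limma, adjusted p = 0.124), and it was called without GC replicate 1 (log2 fold change 0.62; limma, adjusted p = 0.0217). It was not called when any other single pool was left out, and without naive replicate 1 the log2 fold change was 0.27 (limma, adjusted p = 0.311). With the replicate number as a block in the model, Egr1 was called higher in GC B cells (limma, adjusted p = 0.0129). Egr2 (ENSMUSG00000037868, chromosome 10, 67534469 to 67542188), which like EGR3 restrains lymphocyte activation, was at 13.1, 11.6 and 10.5 TPM across GC pools, against 9.98, 11.4 and 10.1 TPM across naive pools. The groups overlap, and the 95% interval of the log2 fold change ran from -0.11 to 0.41 (limma, adjusted p = 0.266), so only a small difference in either direction lies within it. The makeup of the EGR transcripts therefore differed. In the GC pools Egr1 made up 64.5%, 74.0% and 76.3% of their summed TPM, and Egr3 made up 11.2%, 9.97% and 8.70%. In the naive pools Egr1 made up 18.7%, 24.6% and 24.7%, and Egr3 74.7%, 68.7% and 68.1%. Such shares within a pool do not depend on how pools are scaled to each other. The ratio of Egr3 to Egr1 was 0.114 to 0.174 in GC and 2.75 to 3.997 in naive pools.

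**Figure D2:**
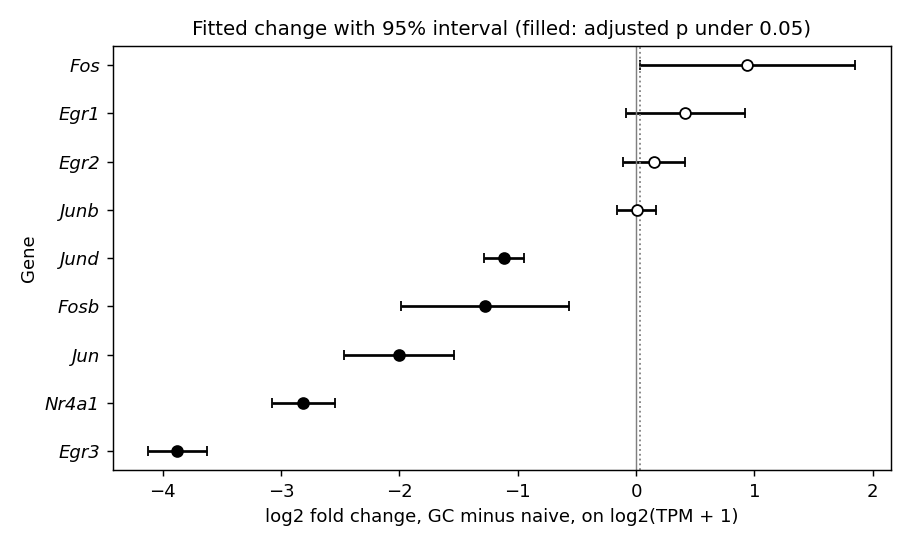
Log2 fold change of GC minus naive B cells on log2(TPM + 1) for the 9 immediate early genes that were tested, with the 95% interval from limma. Filled points are called at an adjusted p under 0.05 over all genes and the dotted line is the median of all genes tested, 0.03. The 5 filled points all lie below 0, from -1.12 for Jund to -3.88 for Egr3, and the intervals of Egr1, Egr2 and Junb include 0.

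Among the JUN genes, Jun and Jund were lower in GC B cells and Junb was not called. Jun (ENSMUSG00000052684, chromosome 4, 95049036 to 95052222), a strong activator of AP-1 target genes, was at 4.99, 2.69 and 3.39 TPM across GC pools. It was at 19.4, 15.8 and 17.2 TPM across naive pools, above every GC pool, with a mean 4.74 times higher. The log2 fold change was -2.00 ± 0.19 (SE; limma, adjusted p = 0.000149). Jund (ENSMUSG00000071076, chromosome 8, 70697739 to 70700616), the JUN gene expressed in most resting cells, was at 112, 100.2 and 94.0 TPM across GC pools, against 225, 217 and 225 TPM across naive pools. The groups do not overlap, the naive mean was 2.18 times the GC mean, and the log2 fold change was -1.12 ± 0.07 (SE; limma, adjusted p = 2.08e-05).

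Junb (ENSMUSG00000052837, chromosome 8, 84976909 to 84978748), which activates fewer AP-1 targets than Jun and can oppose it, was at 123, 117 and 118 TPM across GC pools, against 126, 108 and 123 TPM across naive pools. The pools of both populations are intermingled. The log2 fold change was 0.0045 with a 95% interval of -0.16 to 0.17 (limma, adjusted p = 0.960), and its sign changed with the scaling of the pools. Junb was the most abundant of the 10 genes in GC B cells and Jund in naive B cells. Jund made up 46.7%, 45.6% and 43.6% of the summed TPM of the 3 JUN genes in the GC pools and 60.8%, 63.6% and 61.5% in the naive pools. Jun itself made up only 1.22% to 2.08% in GC and 4.64% to 5.23% in naive pools.

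Of the FOS genes, Fosb was lower in GC B cells and Fos was not called. Fosb (ENSMUSG00000003545, chromosome 7, 19302696 to 19310118), a dimer partner of JUN proteins, was at 2.11, 0.540 and 0.544 TPM across GC pools, against 3.86, 3.997 and 3.33 TPM across naive pools. Every naive pool was higher, and Fosb passed the filter through the naive pools, while GC replicate 1 stood well above the other GC pools. The log2 fold change was -1.28 ± 0.29 (SE; limma, adjusted p = 0.00832). From the approximate depth, the Fosb values in GC replicates 2 and 3 stand for about 13.9 reads each. The counting error of its GC level and share is therefore large. Fos (ENSMUSG00000021250, chromosome 12, 85473890 to 85477274), the prototype immediate early gene, was at 19.4, 8.24 and 7.58 TPM across GC pools, against 7.37, 4.49 and 3.98 TPM across naive pools. The GC pools lie above the naive pools, but the lowest GC value, 7.58 TPM, is close to the highest naive value, 7.37 TPM. The log2 fold change of 0.94 ± 0.38 (SE) was not called (limma, adjusted p = 0.0656), and without GC replicate 1 it was 0.54 (limma, adjusted p = 0.113). With the replicate number as a block in the model, Fos was called higher in GC B cells (limma, adjusted p = 0.00631). Fos made up 90.2%, 93.8% and 93.3% of the summed TPM of Fos and Fosb in the GC pools and 65.6%, 52.9% and 54.4% in the naive pools. The summed JUN level was 11.1 to 26.5 times the summed FOS level in GC and 32.98 to 50.05 times in naive pools.

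**Figure D3:**
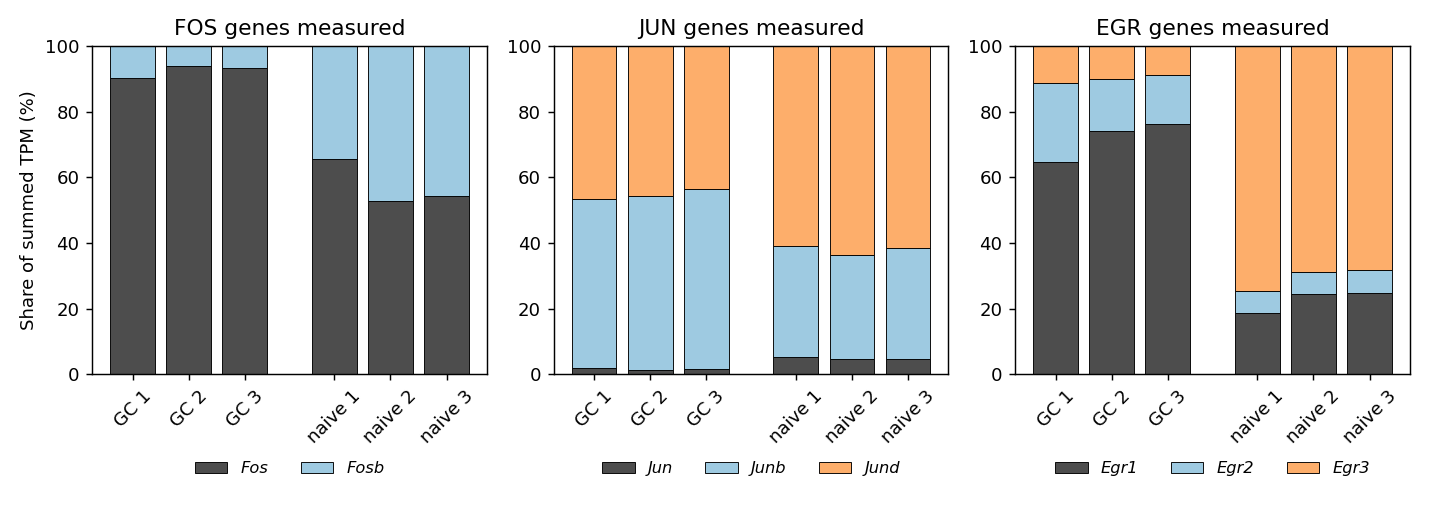
Share of each gene in the summed TPM of its family (vertical axis, percent) in each GC and naive pool, for the FOS genes Fos and Fosb, the JUN genes and the EGR genes. Egr3 takes 8.70% to 11.2% of the EGR level in GC and 68.1% to 74.7% in naive pools, and Fosb takes 6.15% to 9.79% of the FOS level in GC and 34.4% to 47.1% in naive pools. The Fosb shares in GC replicates 2 and 3 rest on few reads.

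Atf3 (ENSMUSG00000026628, chromosome 1, 191170296 to 191183333), a stress-induced factor that represses many promoters as a homodimer, had the lowest mean of the 10 genes in both populations, although Fosb was lower than Atf3 in GC replicates 2 and 3. It was at 1.12, 0.844 and 0.934 TPM across GC pools, against 0.311, 0.246 and 0.387 TPM across naive pools, which do not overlap. From the transcript length and the approximate depth, these values stand for about 4.9 to 15.9 reads per pool, so the counting error is large. Without the filter on low values Atf3 was called higher in GC B cells (log2 fold change 0.58 ± 0.10 SE on log2(TPM + 1); limma, adjusted p = 0.00417).

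By level, the 10 genes ran in GC B cells from Junb over Jund, Egr1, Egr2, Fos, Nr4a1, Egr3, Jun and Fosb to Atf3. The pool ranges of Egr2 and Fos, of Fos and Nr4a1, and of Fosb and Atf3 overlapped. In naive B cells the order was Jund, Junb, Egr3, Nr4a1, Egr1, Jun, Egr2, Fos, Fosb and Atf3, where only the ranges of Junb and Egr3 and of Fos and Fosb overlapped. Egr3 thus stood in place 7 in GC and in place 3 in naive B cells, and Nr4a1 in places 6 and 4.

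Replicate 1 of both populations stood apart for part of the family. In GC replicate 1, Fos was 1.198 log2 units above the mean of the other GC pools, a larger excess than 98.7% of the genes tested. Fosb (98.4%) and Jun (96.7%) ranked alike there. In naive replicate 1, Fos was 0.68 log2 units above the other naive pools (97.3%), whereas Fosb (60.6%) was not unusual. Egr1 lay at the other end in both, 0.60 and 0.42 log2 units lower in replicate 1 than in the other pools of its population. Hspa1b, which encodes an inducible HSP70 and is named here after its values were seen, was at 9.03 and 10.8 TPM in the replicate 1 pools and at 1.12 to 3.51 TPM in the other 4 pools. RSEM divides its reads with the near-identical Hspa1a. Without replicate 1 of both populations, an alternative chosen after the data were seen, Fos was called higher in GC B cells (log2 fold change 0.77; limma, adjusted p = 0.0132), and so was Egr1 (0.48; limma, adjusted p = 0.0226). The pools left out are those in which Fos and Egr1 deviated, and leaving them out narrows the spread of these genes. These calls therefore follow in part from the choice of pools and add no support. The fit also holds fewer pools of each population. The 5 genes that were lower in GC B cells were called in that fit too. The part of sample handling in these differences between pools was not tested.

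The remaining members of these gene families were mostly low or moved in their own directions. Of 13 other AP-1 family genes 7 were tested, of which 2 were higher and 3 lower in GC B cells, against 35.5% and 30.1% of all genes, so that the 5 called of 7 are near the share of all genes. Their median log2 fold change was -0.01. Jdp2, a bZIP repressor that dimerizes with JUN proteins, was at 21.8, 20.3 and 18.4 TPM across GC pools, against 0.905, 0.808 and 1.34 TPM across naive pools (log2 fold change 3.40 ± 0.14 SE; limma, adjusted p = 3.02e-06), and it passed the filter through the GC pools. Batf, which pairs with JUN proteins and is required for class switching, was also higher, at 38.2 ± 1.78 against 21.0 ± 4.19 TPM (SD, n = 3; limma, adjusted p = 0.00215). The small MAF gene Mafk fell, from 38.6 TPM in naive to 18.1 TPM in GC B cells (log2 fold change -1.05; limma, adjusted p = 4.28e-05). Fosl1 and Fosl2, the other FOS genes, had means of 0.296 to 0.780 TPM in both populations and were not tested. Atf7 was left out because 2 protein-coding identifiers carry its symbol.

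Among the relatives of the EGR and NR4A genes, 3 of 5 were tested, of which 2 were lower in GC B cells and 0 higher in limma, a share called near the 65.6% of all genes. Nr4a3, a close relative of Nr4a1, was at 0.110, 0.111 and 0.474 TPM across GC pools, against 1.202, 1.51 and 1.85 TPM across naive pools (log2 fold change -1.04 ± 0.18 SE; limma, adjusted p = 0.00270), and it entered the test only through the naive pools. Nab2, an EGR corepressor that EGR proteins induce, was at 27.5 TPM in GC versus 43.9 TPM in naive B cells (log2 fold change -0.65; limma, adjusted p = 0.00416). Nab1 was at 29.1 and 31.3 TPM and was not called (limma, adjusted p = 0.277). Nr4a2 was listed at 0 in the GC pools and ranged from 0.0821 to 0.129 TPM in naive pools, and Egr4 was listed at 0 in every pool.

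Of the factors that act upstream of these genes, all 12 were tested, and 2 were higher and 3 lower in GC B cells, against 35.5% and 30.1% of all genes (median log2 fold change -0.05). Srf was at 48.8 TPM in GC versus 50.4 TPM in naive B cells, with a 95% interval of the log2 fold change from -0.18 to 0.097. Its ternary complex partners split. Elk4 was lower in GC B cells (56.5 against 110.5 TPM; limma, adjusted p = 0.000516). Elk3 was higher (63.9 against 38.8 TPM; limma, adjusted p = 2.3e-05), and Elk1 was not called (limma, adjusted p = 0.702). Elk1 and Elk3 are named after their values were seen. Atf1, a CREB family factor, was higher (84.6 against 49.2 TPM; limma, adjusted p = 0.000366). Mef2c was the highest of these factors in GC B cells (125 TPM) and Mef2d in naive B cells (130 TPM). Among kinases of the MAP kinase cascade, Rps6ka5, which encodes the nuclear kinase MSK1, had the largest decrease in GC B cells (log2 fold change -1.22; limma, adjusted p = 0.000344). Map2k2 was the most abundant of these kinases in both populations, at 111 TPM in GC versus 134 TPM in naive B cells.

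Genes that limit the response split in both directions. Of 14 dual specificity phosphatase, Sprouty, Spred and ZFP36 genes 13 were tested, and 4 were higher and 7 lower in GC B cells, against 35.5% and 30.1% of all genes (median log2 fold change -0.32). Dusp10, which inactivates JNK and p38, was at 37.1, 38.8 and 40.7 TPM across GC pools, against 7.02, 6.13 and 5.56 TPM across naive pools (log2 fold change 2.47 ± 0.10 SE; limma, adjusted p = 2.67e-06). Dusp4 and Dusp6, feedback phosphatases of the ERK pathway, were lower in GC B cells, Dusp4 at 10.2 against 39.9 TPM and Dusp6 at 23.4 against 63.1 TPM (limma, adjusted p = 2.43e-06 and 2.93e-06). Zfp36l1, an mRNA decay factor, had the highest mean of the list in both, with 204 TPM in GC versus 344 TPM in naive B cells, where the pools of its relative Zfp36 overlapped with it (344 ± 9.31 TPM; SD, n = 3). Dusp1 and Dusp6 are named after their values were seen. Dusp1, itself an immediate early gene, went against most of the genes above: it was at 20.4, 12.2 and 12.9 TPM across GC pools, against 3.02, 2.70 and 2.84 TPM across naive pools (log2 fold change 2.03 ± 0.20 SE; limma, adjusted p = 0.000158).

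Other early response genes were mostly lower in GC B cells. Of 23 listed genes 20 were tested, and 15 were lower and 2 higher, against 30.1% and 35.5% of all genes, with a median log2 fold change of -0.94 against 0.03 over all genes. The largest decrease was that of Klf2, a quiescence factor, from 287 ± 41.2 TPM in naive to 4.16 ± 0.930 TPM in GC B cells (SD, n = 3; limma, adjusted p = 6.96e-07). Gadd45b, a stress-induced growth arrest gene, rose most, to 187 ± 16.1 TPM in GC from 34.0 ± 4.67 TPM in naive B cells (SD, n = 3; limma, adjusted p = 4.80e-06). Mcl1, a BCL2 family survival gene, was the most abundant in both, at 243 TPM in GC versus 395 TPM in naive B cells. Ier2 and Ier5, named after their values were seen, behaved like Egr3 and Nr4a1. Ier2 was at 19.3, 21.5 and 19.2 TPM across GC pools, against 128, 113 and 111 TPM across naive pools, and Ier5 at 21.7, 21.3 and 23.4 TPM and at 185, 175 and 166 TPM (log2 fold changes -2.49 and -2.93; limma, adjusted p = 1.09e-06 and 2.90e-07).

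**Figure D4:**
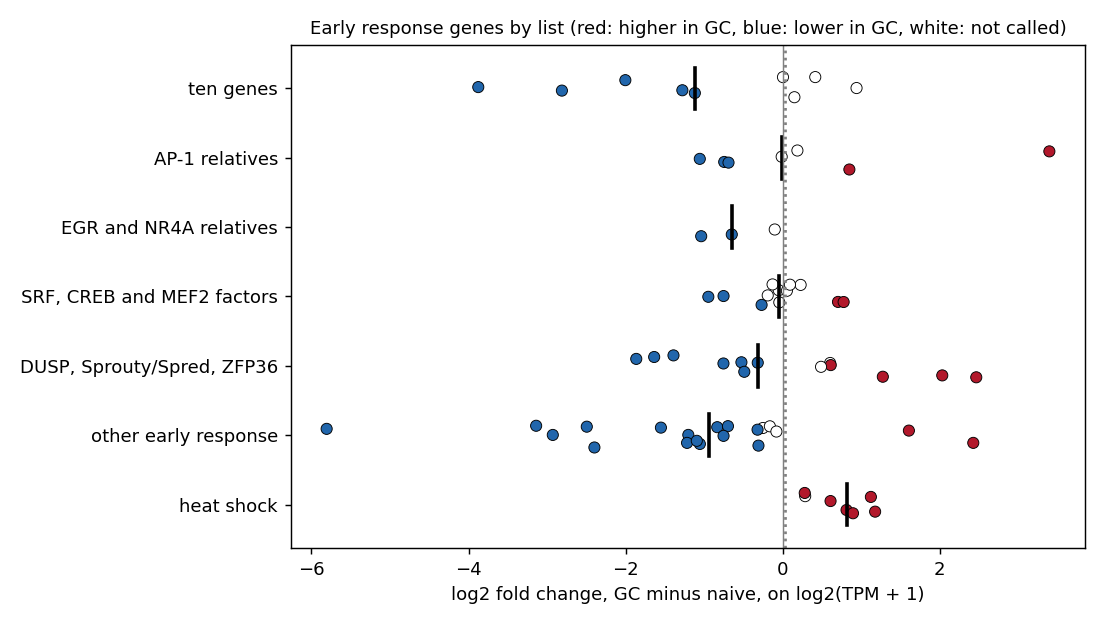
Log2 fold change of GC minus naive B cells on log2(TPM + 1) for every tested gene of the 10 immediate early genes and of 6 related lists (1 point a gene, spread vertically at random). Red and blue points are called higher and lower in GC B cells by limma, thick bars are list medians and the dotted line is the median of all genes, 0.03. Early response genes other than the 10 have a median of -0.94, with Klf2 farthest left at -5.81, and the heat shock genes a median of 0.81.

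The genes whose pattern over the 6 pools was most like that of Egr3 were Scml4, Snn and Irak3, with Euclidean distances of 0.171, 0.228 and 0.236 between profiles of log2(TPM + 1) centered on each gene's mean. Scml4 was at 2.43 to 2.91 TPM across GC pools, against 50.2 to 61.8 TPM across naive pools. With 3 pools in each population, such a distance mainly expresses a difference of like size between the populations.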

How the data were processed

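Reads were demultiplexed with CASAVA v1.8, adapters were removed with cutadapt v1.9, and the authors used RSEM v1.2.25 to align and quantify them, with NCBIm38 v75 as the transcriptome and 180 (SD 50) as fragment length. They deposited FPKM per gene and pool. FPKM depends on the length that RSEM assigns and does not hold counts. FPKM were rescaled to TPM within each pool, and no column was unused. Of 39179 identifiers 33398 matched a gene symbol, and sequences and coordinates came from RefSeq (GRCm38.p6). The GRCm38 genome itself was not used here.

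Populations were compared with limma 3.58.1 (run in R 4.3.3 with the eBayes trend option) on log2(TPM + 1), for genes that reached 1 TPM in 3 or more pools, with Benjamini-Hochberg adjustment. A log2 fold change on this scale understates the change of low genes. The model was tested on simulated data. Tables and plots were made with Python 3.11.15. The genes and lists were chosen with earlier results of these data known. Named genes are the 10 genes, the sort markers, the called gene with the largest change in each direction and the most abundant gene in each population of each list, and the 3 nearest patterns. Some of the named genes are not reported here. Alternatives covered the pseudocount, filter, scaling, trend, replicate block, and leaving out pools.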

Additional observations from a re-analysis of the deposited data

How the results depend on the processing

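In 275 of 287 recomputed values, which belong to 18 results, direction and call were kept or, for a count of genes, the count stayed within 1.5 times its value. The count of all genes called ranged from 6882 without replicate 1 of both populations to 8639 without a filter, around 8392, and from 7656 to 8101 when each pool was left out in turn. With FPKM as deposited, quantile normalization and median-ratio size factors, the sign of Junb reversed, to log2 fold changes of -0.047, -0.14 and -0.027. Junb lay between -0.063 and 0.045 when each pool was left out in turn. It was not called in any of them. The count of EGR and NR4A relatives called fell from 2 to 1 when at least 5 TPM was required or FPKM was used as deposited, because Nr4a3 was then not tested. Jun, Jund, Egr3 and Nr4a1 were called lower in GC B cells in all 16 alternatives and Fosb in all 15 in which it was tested. Of the 10 genes, between 4 and 7 were called over the alternatives. Only 8 were tested at 5 TPM, where Fosb dropped out. Fos reached its lowest log2 fold change, 0.54, without GC replicate 1. With the replicate number as a block, 7960 genes were called in place of 8392, and 7 of the immediate early genes in place of 5, because Fos (limma, adjusted p = 0.00631) and Egr1 (limma, adjusted p = 0.0129) were added. Deviations of same-numbered pools correlated at 0.083, 0.0225 and 0.0456. Each GC pool correlated best with the naive pool of its number, although naive replicate 2 correlated better with GC replicate 3 (0.0298). These correlations are weak and the labels state no pairing, so the main fit does not pair the pools. Whether same-numbered pools share mice remains unknown. Depth limits Atf3 most, and also Fosb in GC replicates 2 and 3.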

Other observations

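Heat shock genes, which are reported with immediate early genes among those raised by tissue dissociation, differed from most early response genes in direction. The part of sample handling in this difference was not tested. Of 9 listed genes 7 were tested, and 6 were higher, against 35.5% of all genes, and 0 lower in GC B cells in limma, also at an unadjusted p under 0.05. Hsph1, a cochaperone of HSP70, had the largest log2 fold change (1.18 ± 0.08 SE; limma, adjusted p = 3.30e-05), at 44.9 TPM in GC versus 19.3 TPM in naive B cells. Hspa8, the constitutive HSP70, was the most abundant of them, at 1820, 1818 and 1943 TPM across GC pools, against 1132, 946 and 1102 TPM across naive pools. The inducible Hspa1b did not differ beyond its spread (95% interval of the log2 fold change -1.52 to 2.09; limma, adjusted p = 0.757), with its highest value in replicate 1 of each population.

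The genes nearest in pattern to Fos over the 6 pools were Egln3, 2010305A19Rik and Gm12932, with distances of 0.609, 0.620 and 0.629 on log2(TPM + 1). All of them had their highest value in GC replicate 1, as Fos did. This follows from choosing them by their likeness to Fos over these pools and adds no support. Egln3, which encodes an oxygen-sensing prolyl hydroxylase, was at 2.52, 1.16 and 1.30 TPM across GC pools, against 0.418, 0.342 and 0.103 TPM across naive pools. It passed the filter only through the GC pools.

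Socs3, a feedback inhibitor of cytokine signaling, and Cd69, an early activation antigen, were chosen after their values were seen. Both were lower in GC B cells, Socs3 at 5.15 against 53.3 TPM and Cd69 at 13.5 against 75.3 TPM (limma, adjusted p = 1.22e-06 and 1.19e-06).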
